A study of Mus musculus with 12 samples.

Results

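Intermediate cells of the newborn mouse aorta and its perivascular fat were compared with progenitor cells sorted from the same tissue, over all 36512 genes of the deposited count table. The comparison took the 3 intermediate and the 3 progenitor libraries by their column names, 6 of the 12 libraries of a series that also holds preadipocytes and smooth muscle cells. Both groups came from CD-1 pups of mixed sex at postnatal day 3, an outbred stock, and the labels name no allele, transgene or treatment in either. Aortas with the fat around them were minced and digested with collagenase and dispase, cells were sorted by flow cytometry into serum, and poly(A) RNA was amplified from low input. The labels do not give the gates of the sort or the number of pups behind a library, so surface proteins named below may have been used to sort the cells. No label ties a replicate to its own litter or sort. The p-values therefore rest on the spread of these 6 samples, and that spread may be technical.

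Perivascular fat surrounds the aorta, and its stroma holds fibroblast-like progenitors that carry the surface proteins Ly6a (Sca-1), Cd34 and Dpp4 and can form adipocytes. Mural cells, the smooth muscle cells and pericytes of the vessel wall, contract through smooth muscle actin and myosin, whose genes are switched on by the serum response factor with its cofactor myocardin. Notch3 on mural cells answers the ligand Jag1 and turns on Hey genes, and the newborn aorta lays down elastin and collagen at a high rate.

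The libraries held 14778738 to 17123109 counts in the progenitor and 12862486 to 15550623 in the intermediate group, and 16552 genes had enough counts to be tested. Levels are CPM, counts scaled to a common library total after TMM scaling, which adjusts each library for its overall composition, and 3 values in a row stand for replicates 1, 2 and 3. At these totals a gene with no count could still be present at up to 0.169 to 0.243 CPM, a limit that covers counting error only. Some measures of library content moved with the groups. The 1223 olfactory and vomeronasal receptor genes, which are used in sensory neurons, summed to 49.2 to 106 CPM in progenitor and 133 to 345 CPM in intermediate libraries. The 10 most abundant genes took 19.9% to 20.8% of the counts in progenitor and 27.0% to 28.0% in intermediate libraries. Haemoglobin genes took 0.008% to 0.0253% of the counts in progenitor and at most 0.000798% in intermediate libraries. Their part in the results was not tested, apart from the alternative that subtracts an even background.

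Of the 16552 genes tested, 7118 (43.0%) differed between the groups by edgeR's quasi-likelihood test at an adjusted p under 0.05, and such genes are referred to as called. Intermediate libraries were higher in 3677 genes (22.2%) and lower in 3441 (20.8%), and the median log2 fold change of all tested genes was 0.01. The fold change was at least 2-fold in 1554 of the higher genes (9.39% of those tested) and in 850 of the lower (5.14%). The libraries of the 2 groups did not overlap in 53.7% of the tested genes. Positive log2 fold changes mean higher in intermediate libraries throughout, and errors on them are standard errors. Scaling by library size alone moved the median of all genes by -0.12 on the log2 scale, and 38.5% of the called genes were then higher in place of 51.7%.

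**Figure D1:**
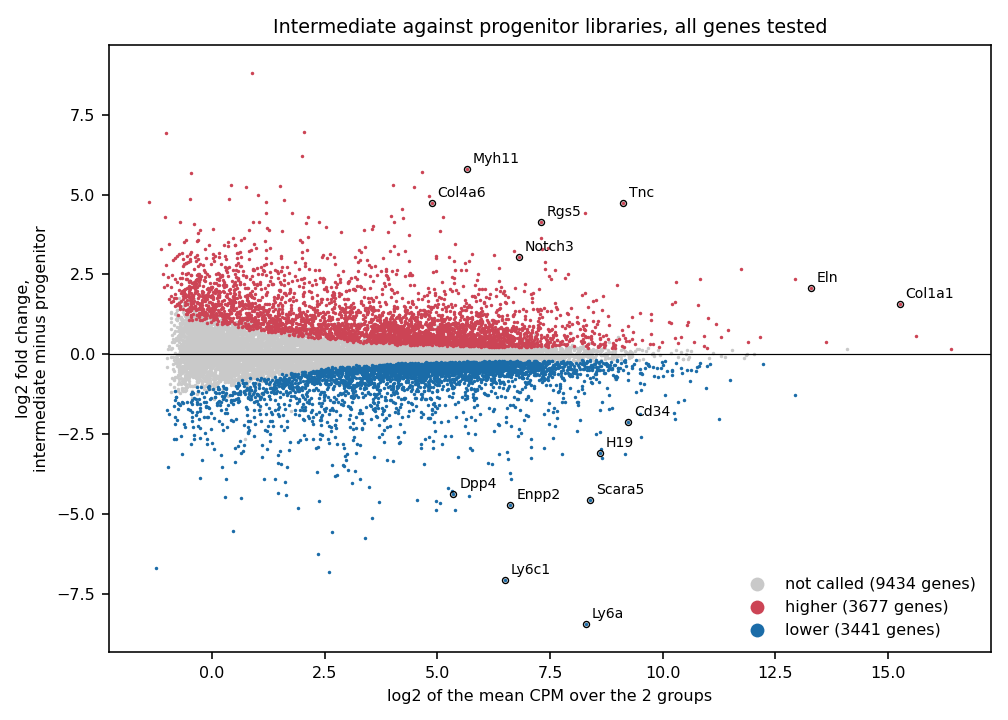
Log2 fold change (intermediate minus progenitor, vertical axis) against the log2 of the mean CPM over both groups (horizontal axis) for the 16552 genes tested, with called genes in colour. Among the labelled genes Ly6a lies lowest at -8.46, while Myh11, Col4a6 and Tnc lie highest at 5.79, 4.74 and 4.72.

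Fold changes moved with the length of the transcript. Among protein-coding genes with a mean log2 CPM of at least 4, the 99 genes with under 1 kilobase of annotated exon had a median log2 fold change of -0.42, and 71 of them were called lower. The 1746 genes with over 8 kilobases had a median of 0.19, and 730 of them were called higher. An alternative fit in which this trend was removed, chosen after seeing the data, called 6451 genes, 5454 of them also called without it. Of the genes chosen for naming by the rules given under processing, 27 kept their direction in that fit but lost their call. A further 12 kept their direction and gained a call, and 5 turned direction. Among all of these, Fbn1, Col3a1, mt-Co2, mt-Co3 and mt-Nd1 lost their call, and Srf, Pcna and Rplp1 gained one.

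**Figure D2:**
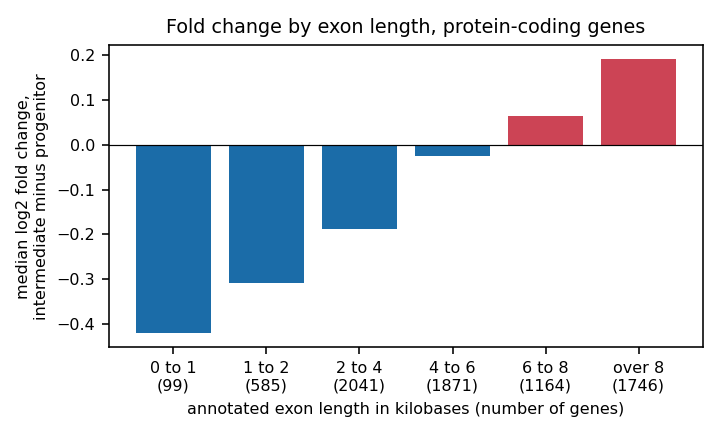
Median log2 fold change (vertical axis) of protein-coding genes with a mean log2 CPM of at least 4, in bins of annotated exon length in kilobases (horizontal axis, gene numbers in parentheses). The median goes from -0.42 in the shortest bin to 0.19 in the longest.

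The genes described are members of 50 lists, and 1283 of the 1429 distinct list genes in the table had enough counts to be tested. Among those 1283 genes, 445 were called higher and 436 lower. In each list the count called is to be read against the 22.2% and 20.8% above. The lists were chosen with earlier results of these data known, and 68.7% of their tested genes were called, against 43.0% of all. Exon length differed between lists too. The median was 10137 bases in calcium and cation channels, 8272 in basement membrane genes and 8004.5 in fibrillar and associated collagens. It was 7140 in axon guidance genes and 7015 in integrins. Counts of such lists are also to be read against the length bins above.

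Markers of adventitial and adipose progenitors were lower in the intermediate cells. Of 26 markers tested, 22 were called lower and 1 higher, and their median log2 fold change was -1.92. Ly6a, the surface protein Sca-1, stood at 630.1, 711 and 539 CPM in progenitor and 1.45, 1.97 and 1.86 CPM in intermediate libraries. The groups were far apart, and the log2 fold change of -8.46 ± 0.16 was the most negative among genes with a mean log2 CPM of at least 4. Ly6a lies on chromosome 15 from 74994877 to 74998031 of mm10, near Ly6c1, a related gene that stood at 179, 199 and 162 CPM in progenitor and 1.38, 1.29 and 1.30 CPM in intermediate libraries. Reads shared between such relatives could have been split between them in counting.

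Other progenitor markers fell less. Dpp4, a peptidase on early adipose progenitors, was at 73.4, 78.3 and 82.6 CPM in progenitor and 4.89, 2.98 and 3.32 CPM in intermediate libraries, and Cd55, a shield of the cell surface against complement, at 106, 94.7 and 101 CPM in progenitor and 5.65, 4.68 and 3.40 CPM in intermediate libraries. Both were low in every intermediate library, with log2 fold changes of -4.39 ± 0.15 and -4.45 ± 0.15. Pi16, a secreted peptidase inhibitor of adventitial fibroblasts, was at 697, 810.0 and 602 CPM in progenitor and 86.9, 83.6 and 97.9 CPM in intermediate libraries, a change of -2.97 ± 0.11. Cd34, a sialomucin of progenitor and endothelial cells, was at 1031, 993 and 919 CPM in progenitor and 231, 224 and 224 CPM in intermediate libraries (-2.12 ± 0.07), so its transcript stayed well above the detection limit in the intermediate group. Pdgfra, a PDGF receptor found on mesenchymal cells, stood at 470.2, 413 and 434 CPM in progenitor and 259.8, 295 and 250.0 CPM in intermediate libraries (-0.71 ± 0.08), and the groups did not overlap. Fbn1, which encodes the microfibril protein fibrillin 1, was the marker called higher, at 1807, 1839.6 and 1640.3 CPM in progenitor and 2001, 2333 and 1931 CPM in intermediate libraries. Its log2 fold change of 0.25 ± 0.08 lost the call without intermediate replicate 1 (0.24), intermediate replicate 2 (0.16) or progenitor replicate 3 (0.17). In bulk libraries fewer cells of a type and less RNA per cell cannot be told apart, here and in every list below.

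Other genes with large falls included receptors, secreted proteins and enzymes of stromal cells. Scara5, a ferritin receptor, went from 642 to 26.9 CPM, and its 3 progenitor and 3 intermediate values each varied little (-4.58 ± 0.08). Enpp2, the enzyme autotaxin that makes lysophosphatidic acid, was at 178, 213 and 179 CPM in progenitor and 6.57, 7.86 and 6.89 CPM in intermediate libraries (-4.74 ± 0.12). Efemp1, a fibulin, was at 166, 159.6 and 221 CPM in progenitor and 19.3, 10.03 and 12.2 CPM in intermediate libraries (-3.72 ± 0.21), and Aldh1a3, an enzyme that makes retinoic acid, at 82.4, 64.2 and 69.6 CPM in progenitor and 5.04, 2.44 and 4.38 CPM in intermediate libraries (-4.20 ± 0.20). Xdh, xanthine dehydrogenase of purine breakdown, fell from 76.9 to 3.94 CPM, and Hp, which encodes haptoglobin, from 60.5 to 2.48 CPM. Gsn, the actin-severing protein gelsolin, fell from 3903 to 951 CPM with a log2 fold change of -2.04 ± 0.07. Ptn, the growth factor pleiotrophin, and Penk, the precursor of enkephalin peptides, fell from 136 to 12.6 CPM and from 293 to 38.1 CPM.

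Most contractile genes of smooth muscle rose. Of 30 tested, 25 were called higher and 1 lower, with a median log2 fold change of 1.44. All 8 tested thin filament genes were called higher. Acta2, smooth muscle alpha-actin, stood at 30.8, 31.8 and 20.1 CPM in progenitor and 693, 544 and 531 CPM in intermediate libraries, a log2 fold change of 4.42 ± 0.17 (edgeR adjusted p = 3.43e-09). Actg2, the gamma-actin of smooth muscle, was at 2.01, 1.03 and 2.19 CPM in progenitor and 70.7, 52.5 and 40.5 CPM in intermediate libraries (4.97 ± 0.26). Both actins were low in every progenitor library and high in every intermediate one. Per kilobase of exon, Acta2 was at 12.6 CPM in progenitor and 268 CPM in intermediate libraries and Actg2 at 1.12 CPM in progenitor and 35.1 CPM in intermediate libraries, so Acta2 was the higher of the pair in both groups. Cnn1, calponin, which binds actin in smooth muscle, rose from 2.98 to 27.9 CPM (3.22 ± 0.19), and Tpm2, a tropomyosin, from 17.8 to 102 CPM (2.52 ± 0.13).

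On the myosin side, Myh11, the smooth muscle myosin heavy chain, was at 1.43, 1.78 and 2.08 CPM in progenitor and 125, 104 and 67.5 CPM in intermediate libraries (5.79 ± 0.25), and intermediate replicate 3 was the lowest of its group. Myl9, a regulatory light chain of smooth muscle myosin, was at 134, 146 and 122 CPM in progenitor and 399, 332 and 360.5 CPM in intermediate libraries (1.44 ± 0.09). Among genes of the cytoskeleton and dense bodies, Pdlim3, a scaffold at actin anchor points, was at 5.71, 4.54 and 4.27 CPM in progenitor and 38.4, 34.6 and 37.5 CPM in intermediate libraries (2.93 ± 0.13), and Fhl2, a cofactor that binds actin-linked proteins, at 32.8, 31.4 and 27.9 CPM in progenitor and 128, 112 and 139 CPM in intermediate libraries (2.04 ± 0.10). Itga8, an integrin subunit of mural cells, rose from 12.2 to 92.3 CPM, and Flna, the actin crosslinker filamin A, from 550.1 to 1150.2 CPM. Des, the muscle intermediate filament desmin, went the other way, at 12.4, 9.30 and 10.1 CPM in progenitor and 2.37, 1.90 and 1.62 CPM in intermediate libraries (-2.42 ± 0.20). Tagln, often used as a smooth muscle marker, was low in both groups, at 0.260, 0.0574 and 0.393 CPM in progenitor and 1.60, 1.42 and 2.19 CPM in intermediate libraries, and 67.9% of its annotated exon bases overlap other genes. Its counts are uncertain, because the sources used here do not say whether counting used strand.

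Promoters of contractile genes are known to carry the CArG box, to which the serum response factor binds, and the MCAT motif (CATTCC, or GGAATG on the other strand), to which TEAD factors bind. Windows from 250 bases before to 50 after each start site, from RefSeq on GRCm38.p6, were searched on both strands. The CArG box was matched only as CCWWWWWWGG, with W for A or T, and near matches were not counted. The Acta2 window below holds ccctatatgg and ccttgtttgg, each off that pattern by a base, so it was not counted for this box. The CArG box lay in the windows of 5 of 27 contractile genes with a promoter entry (18.5%), namely Fhl2, Ldb3, Myl6, Myl9 and Vcl, against 1.81% of all genes with one. MCAT letters lay in those of 11 of the 27 (40.7%), against 16.6% of all genes. Both shares are descriptions with no test, and matching letters do not show binding. The first 2 promoters below hold a CArG box and the next 2 hold MCAT letters, each in capitals, and they are shown because all 4 genes were called higher.
Myl9, chr2:156775214-156775513, plus strand: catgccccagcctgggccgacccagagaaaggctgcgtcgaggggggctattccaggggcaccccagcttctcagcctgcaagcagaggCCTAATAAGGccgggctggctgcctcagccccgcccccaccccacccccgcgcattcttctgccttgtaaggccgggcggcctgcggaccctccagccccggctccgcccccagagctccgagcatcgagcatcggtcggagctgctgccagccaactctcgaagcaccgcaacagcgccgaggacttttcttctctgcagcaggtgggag
Fhl2, chr1:43163912-43164211, minus strand: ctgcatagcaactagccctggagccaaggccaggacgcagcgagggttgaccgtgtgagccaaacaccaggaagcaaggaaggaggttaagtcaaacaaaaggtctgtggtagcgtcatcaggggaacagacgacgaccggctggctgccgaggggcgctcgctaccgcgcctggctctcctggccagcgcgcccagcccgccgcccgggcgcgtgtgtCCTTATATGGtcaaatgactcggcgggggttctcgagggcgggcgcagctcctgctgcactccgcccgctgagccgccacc
Acta2, chr19:34255324-34255623, minus strand: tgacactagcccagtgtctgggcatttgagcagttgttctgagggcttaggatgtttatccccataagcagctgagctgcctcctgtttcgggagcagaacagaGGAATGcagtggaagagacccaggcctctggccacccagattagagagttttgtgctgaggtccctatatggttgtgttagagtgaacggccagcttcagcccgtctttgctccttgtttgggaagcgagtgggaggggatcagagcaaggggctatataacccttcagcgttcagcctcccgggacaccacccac
Pdlim3, chr8:45885237-45885536, plus strand: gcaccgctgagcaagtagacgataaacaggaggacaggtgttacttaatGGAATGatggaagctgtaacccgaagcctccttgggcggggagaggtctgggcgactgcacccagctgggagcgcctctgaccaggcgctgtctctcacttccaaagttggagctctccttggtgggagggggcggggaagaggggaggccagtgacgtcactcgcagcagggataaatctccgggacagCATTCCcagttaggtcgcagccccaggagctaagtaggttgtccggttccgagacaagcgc
The boxes begin at position -161 in Myl9 and -31 in Fhl2, counted from the start site, and the first MCAT letters at -146 in Acta2 and -201 in Pdlim3.

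Transcription regulators of mural cells were split. Of 31 tested, 18 were called higher and 7 lower. Myocd, which encodes myocardin, was at 0.584, 0.172 and 0.169 CPM in progenitor and 6.57, 7.59 and 5.35 CPM in intermediate libraries (4.41 ± 0.38). Progenitor replicates 2 and 3 were at about the level that 3 counts give, and every intermediate library was above every progenitor library. Lmcd1, a partner of Gata factors, rose from 1.95 to 17.8 CPM (3.20 ± 0.20), and Tead3, a TEAD factor, from 4.01 to 10.8 CPM. Heyl, a Notch target that encodes a repressor, was at 35, 33.8 and 26 CPM in progenitor and 327, 320.0 and 305 CPM in intermediate libraries (3.33 ± 0.11). The forkhead factors Foxc1, Foxc2 and Foxs1, of which the first pair shape vessels and their mural coat, were at 10.5 to 44.8 CPM, 13.7 to 85.3 CPM and 6.13 to 35.9 CPM from progenitor to intermediate libraries. Gata6, a factor of differentiated smooth muscle, rose from 86.1 to 157 CPM (0.87 ± 0.09). Serum response factor (Srf) itself was at 21, 31.2 and 31.7 CPM in progenitor and 33.5, 36.4 and 39.97 CPM in intermediate libraries, and its log2 fold change of 0.39 ± 0.15 was not called (edgeR adjusted p = 0.052), though it was without progenitor replicate 2 (0.46) or progenitor replicate 3 (0.46). The regulators called lower included the early B-cell factors Ebf1 (155, 155 and 164 CPM in progenitor and 70.9, 66.3 and 69.6 CPM in intermediate libraries) and Ebf2 (273, 237 and 273 CPM in progenitor and 77.5, 70.2 and 65.3 CPM in intermediate libraries), which also act in adipocyte precursors. Without intermediate replicate 2, 4 regulators were called lower, and in the fit of all 12 libraries 3.

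Other developmental transcription factors were more often called higher than lower. In the list of Forkhead, T-box, Sox and Gata factors, 21 of 32 tested were called higher and 2 lower, with 11 of 14 Forkhead members among the higher. Foxd1, a forkhead factor of stromal progenitors in kidney and other organs, was at 1.82, 5.40 and 4.94 CPM in progenitor and 26.6, 29.5 and 19 CPM in intermediate libraries (2.61 ± 0.28), and Foxl1, known from gut mesenchyme, at 0.454, 0.804 and 0.618 CPM in progenitor and 6.72, 6.78 and 8.51 CPM in intermediate libraries (3.52 ± 0.26). Neither overlapped between groups. Sox7, a Sox factor of vessel cells, rose from 2.67 to 10.2 CPM. The members called lower were Tbx3 (3.85 to 2.15 CPM) and Tbx18 (30.5 to 20.3 CPM), T-box factors, the second of which marks mural and epicardial lineages. Hox genes, which record position along the body axis, had 3 of 19 called lower and 1 higher, a call lost without any 1 of the 6 libraries. With the length trend removed 1 was called lower and 4 higher. Hoxc5 was at 8.05, 9.19 and 6.97 CPM in progenitor and 3.36, 1.90 and 2.68 CPM in intermediate libraries (-1.61 ± 0.22), with no overlap.

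Pericyte markers were also mostly higher, 11 of 15 called higher and 2 lower (1 without intermediate replicate 1 or 3), at a median log2 fold change of 1.85. Rgs5, a brake on G protein signals and a standard pericyte marker, was at 17.8, 18.4 and 14 CPM in progenitor and 322, 285 and 286 CPM in intermediate libraries (4.15 ± 0.12), and Rgs4, its relative, at 9.73, 11.9 and 13.3 CPM in progenitor and 77.5, 69.5 and 69.96 CPM in intermediate libraries (2.63 ± 0.12). Both subunits of the nitric oxide receptor guanylate cyclase rose, Gucy1a1 from 22.2 to 144 CPM and Gucy1b1 from 6.64 to 56.3 CPM. Mcam, an adhesion molecule of the vessel wall, was at 8.76, 7.06 and 10.2 CPM in progenitor and 62.1, 46.1 and 45.9 CPM in intermediate libraries (2.56 ± 0.16), and Cspg4, the proteoglycan NG2, at 13.4, 12.9 and 12.8 CPM in progenitor and 31.9, 35 and 23.8 CPM in intermediate libraries (1.21 ± 0.14). Steap4, a metalloreductase, was called lower, at 111, 101 and 137 CPM in progenitor and 36.4, 34 and 30.4 CPM in intermediate libraries (-1.79 ± 0.12).

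**Figure D3:**
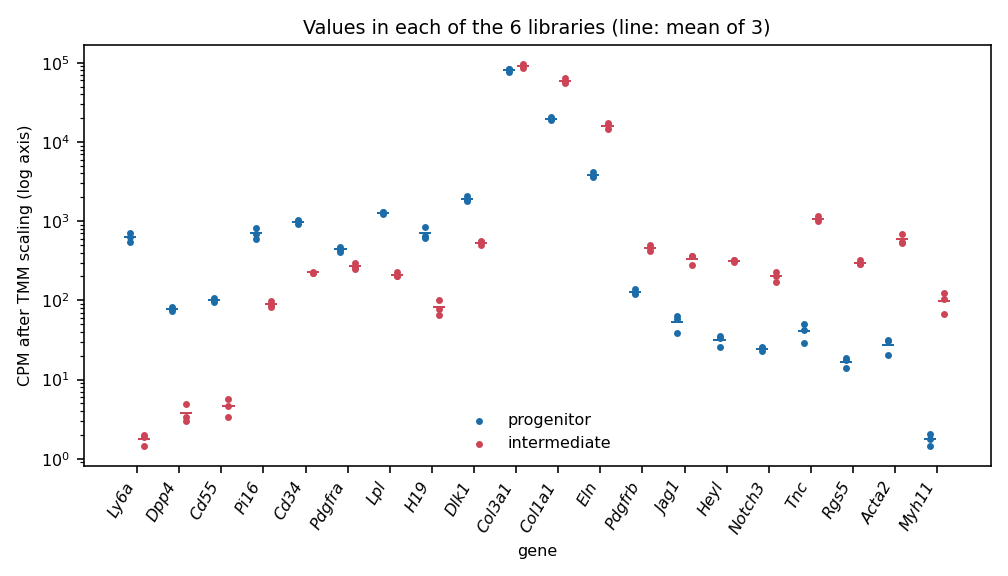
CPM after TMM scaling in each of the 6 libraries (log vertical axis; points are libraries, lines are means of 3) for 20 genes (horizontal axis), from those lower to those higher in intermediate libraries. The 2 groups overlap in none of the 20 genes, the gap is narrow in Col3a1, and it is widest in Ly6a and Myh11.

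Receptors for vasoactive signals did not move in 1 direction, with 13 of 45 called higher and 13 lower. Ednra, the endothelin receptor through which smooth muscle contracts, was at 89.5, 74.8 and 89.2 CPM in progenitor and 233, 229.8 and 219 CPM in intermediate libraries (1.43 ± 0.09), and Ednrb, the second endothelin receptor, at 0.779, 0.402 and 0.618 CPM in progenitor and 10.5, 7.32 and 3.57 CPM in intermediate libraries (3.57 ± 0.42). Agtr1a, the main angiotensin receptor of vessels, went down, at 34.4, 32.8 and 37 CPM in progenitor and 11.9, 11.6 and 9.97 CPM in intermediate libraries (-1.63 ± 0.11), so Ednra and Agtr1a were called in opposite directions. Adora2a, an adenosine receptor, rose from 3.75 to 35.4 CPM, F2r, a thrombin receptor, from 39.4 to 143 CPM, and Vipr2, a receptor of vasoactive intestinal peptide, from 49.6 to 155 CPM. S1pr3, a receptor of sphingosine 1-phosphate, fell from 128 to 24.4 CPM, Ptger3, of prostaglandin E2, from 31 to 4.47 CPM, and Avpr1a, of vasopressin, from 17.1 to 2.38 CPM. These 6 genes were named for their small p among the receptors called, so that each passed the test follows from the choice.

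Ion channels rose more often than they fell. Of 29 potassium channel genes tested, 19 were called higher and 2 lower, and 12 were called higher among the fewer genes with at least 5 CPM in 3 libraries. Kcnk3, a background channel that sets resting potential, was at 1.49, 2.41 and 1.85 CPM in progenitor and 20.2, 14.2 and 13.9 CPM in intermediate libraries (3.06 ± 0.22). Kcnma1, the calcium-activated BK channel of smooth muscle, was at 3.63, 4.13 and 5.62 CPM in progenitor and 10.2, 8.67 and 11.1 CPM in intermediate libraries (1.16 ± 0.19), and Kcne4, an accessory subunit, at 108, 105 and 93.7 CPM in progenitor and 252, 239.8 and 297 CPM in intermediate libraries (1.36 ± 0.10). In each, all intermediate libraries were above all progenitor libraries. Kcnk5, a relative of Kcnk3, fell from 23.5 to 10.6 CPM. Among genes of calcium entry and release, 22 of 35 were called higher and 3 lower. Cacna1c, the pore of the L-type channel that drives smooth muscle contraction, was at 4.02, 6.60 and 7.19 CPM in progenitor and 30.9, 34.4 and 33.3 CPM in intermediate libraries (2.46 ± 0.17), and its partner Cacnb2 rose from 2.55 to 11 CPM. Itpr1, a release channel of the endoplasmic reticulum, rose from 17.9 to 44.8 CPM, Piezo1, a stretch-gated channel, from 50.8 to 93.4 CPM, and Trpv4, a cation channel, fell from 10.6 to 5.28 CPM.

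Most genes of the Notch pathway rose, receptors, ligands and targets among them. Of 20 tested, 15 were called higher and 1 lower, with a median log2 fold change of 1.14. All 4 receptors were called higher. Notch3 was at 25.1, 25.6 and 22.9 CPM in progenitor and 201, 231 and 170.2 CPM in intermediate libraries (3.03 ± 0.12), and Notch1 at 17.5, 18.4 and 18.9 CPM in progenitor and 44.3, 45.3 and 31.5 CPM in intermediate libraries (1.15 ± 0.14). The change of Notch3 was the larger of the pair, and in neither gene did the groups overlap. The ligand Jag1 was at 38.9, 57.6 and 64.3 CPM in progenitor and 363, 364 and 281 CPM in intermediate libraries (2.65 ± 0.17). Dlk1, an imprinted protein that resembles Notch ligands and holds back adipocyte formation, was the member called lower, at 1849, 1810.0 and 2054 CPM in progenitor and 544, 498 and 567 CPM in intermediate libraries (-1.83 ± 0.08). The targets Hey1 and Hey2 were at 6.80 to 17.8 CPM and 5.42 to 22.1 CPM from progenitor to intermediate libraries, and Heyl is given above. Maml2, a coactivator, and Dtx4, a regulator, rose from 13.8 to 30.5 CPM and from 13 to 30.6 CPM. The promoter window of Hey2 holds the core letters TGGGAA of the Rbpj site on both strands (TTCCCA on the other), and is shown, with them in capitals, because it holds them. These letters lay in the windows of 5 of 19 Notch pathway genes with an entry (26.3%) and of 2 of the 11 called higher (18.2%), against 28.3% of all genes with an entry.
Hey2, chr10:30842734-30843033, minus strand: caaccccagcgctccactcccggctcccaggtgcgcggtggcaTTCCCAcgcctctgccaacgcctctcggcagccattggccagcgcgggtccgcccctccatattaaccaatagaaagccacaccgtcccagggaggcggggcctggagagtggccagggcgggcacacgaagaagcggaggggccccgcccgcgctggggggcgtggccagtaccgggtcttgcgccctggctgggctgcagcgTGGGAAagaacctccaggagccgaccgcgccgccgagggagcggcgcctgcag
Its first match begins at position -207 from the start site.

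Genes of the Hedgehog pathway, in which the receptor Patched holds back Smoothened until a ligand binds, were called in both directions. Of 15 tested, 7 were called higher and 3 lower. The receptor and target Ptch1 was at 21.9, 30.8 and 21.2 CPM in progenitor and 82.1, 86.9 and 93.9 CPM in intermediate libraries (1.83 ± 0.14). Hhip, a ligand-binding antagonist that Hedgehog signals induce, was at 185, 167 and 156 CPM in progenitor and 492, 559.6 and 550.4 CPM in intermediate libraries (1.66 ± 0.09). Gli1, a transcription factor and target of the pathway, was at 24.7, 30.9 and 22.6 CPM in progenitor and 64.9, 73.2 and 65.8 CPM in intermediate libraries (1.38 ± 0.12), and Gli2, its main activator, at 24.8, 26 and 23 CPM in progenitor and 48.7, 57.6 and 51.8 CPM in intermediate libraries (1.10 ± 0.10). In these 4 genes every intermediate library was above every progenitor library. The co-receptors Gas1 and Cdon and the ligand exporter Disp1 were called lower. Gas1 was at 233, 478 and 571 CPM in progenitor and 194, 174 and 189 CPM in intermediate libraries (-1.20 ± 0.23), with progenitor replicate 1 close to the intermediate libraries. Disp1 was at 40.6, 35.5 and 40.5 CPM in progenitor and 15.5, 14.9 and 14 CPM in intermediate libraries (-1.39 ± 0.11). Smo was at 164, 152 and 151 CPM in progenitor and 195, 197 and 183 CPM in intermediate libraries, and its call at a log2 fold change of 0.30 ± 0.07 was lost without intermediate replicate 1 (0.25).

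In the TGF-beta and BMP pathway, ligands of the TGF-beta kind and their binding proteins were more often higher and secreted antagonists more often lower. Of 11 ligands and binding proteins tested, 7 were called higher and 0 lower, while of 11 antagonists 1 was called higher and 6 lower. Tgfb1 was at 7.66, 6.49 and 6.63 CPM in progenitor and 27.5, 27.4 and 23.8 CPM in intermediate libraries (1.92 ± 0.13), and Tgfb2 at 23.1, 20.5 and 19 CPM in progenitor and 49.5, 44 and 48.6 CPM in intermediate libraries (1.18 ± 0.11). Ltbp2, a matrix protein of the family that stores TGF-beta, was at 73.2, 69.6 and 77.8 CPM in progenitor and 388, 414 and 353 CPM in intermediate libraries (2.39 ± 0.09). Both ligands and Ltbp2 were higher in every intermediate library. Among antagonists, Fst (follistatin, which binds activins) was at 93.7, 217 and 191 CPM in progenitor and 21.5, 18.7 and 20.4 CPM in intermediate libraries (-3.05 ± 0.25). Bmper, which binds BMPs, was at 246, 227 and 267 CPM in progenitor and 26, 25.7 and 25.2 CPM in intermediate libraries (-3.27 ± 0.09), and Nbl1, of the Dan family of BMP antagonists, at 228, 245 and 226 CPM in progenitor and 41.9, 33.5 and 35.1 CPM in intermediate libraries (-2.66 ± 0.10). These 3 antagonists were 8.3-fold, 9.6-fold and 6.3-fold lower in intermediate libraries, with no overlap. For Fst, progenitor replicate 1 was the lowest of its group. Bmp7, a BMP ligand, was at 23.9, 22 and 22.7 CPM in progenitor and 0.993, 0.542 and 0.405 CPM in intermediate libraries (-5.13 ± 0.22). Of the receptors, Bmpr1b rose from 1.17 to 9.78 CPM and Eng, the co-receptor endoglin, from 41.2 to 93.9 CPM, while Tgfbr3, betaglycan, fell from 150.0 to 59.5 CPM and Tgfbr2 did not pass the test at 269 to 272 CPM. Ccn2, a target of TGF-beta, rose from 85.8 to 179 CPM (1.06 ± 0.08), whereas Id3, a target of BMPs, was not called at 481 to 447 CPM, though it was called lower under library size alone (-0.22).

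In the Wnt pathway, ligands were more often lower and receptors more often higher. Of 10 ligands tested, 6 were called lower and 1 higher, and of 20 receptors and agonists 3 were lower and 11 higher. Wnt2 was at 26, 30.3 and 17.9 CPM in progenitor and 3.21, 3.52 and 4.22 CPM in intermediate libraries (-2.76 ± 0.21) and Wnt5a at 185, 188 and 203 CPM in progenitor and 84.7, 96.9 and 97.5 CPM in intermediate libraries (-1.05 ± 0.08). Wnt5b, closely related to Wnt5a, went the other way, at 11.2, 12.7 and 11.1 CPM in progenitor and 44.2, 44.9 and 45.6 CPM in intermediate libraries (1.94 ± 0.10). The coreceptor Lrp5 rose from 5.46 to 24.8 CPM, and Ror2, a receptor of Wnt5 proteins, from 36.5 to 82.8 CPM. Lgr6, a receptor of R-spondins, rose from 1.01 to 7.31 CPM, while Rspo1, one such R-spondin, fell from 16.9 to 3.80 CPM. Secreted inhibitors were divided. Frzb was at 4.61, 3.39 and 4.77 CPM in progenitor and 58.5, 61.5 and 66.1 CPM in intermediate libraries (3.86 ± 0.14), and Dkk2 at 126, 117 and 139.9 CPM in progenitor and 12.2, 13.6 and 9.73 CPM in intermediate libraries (-3.42 ± 0.13), so Frzb rose and Dkk2 fell. Nkd1, a feedback inhibitor induced by Wnt signals, fell from 38.9 to 14.5 CPM (-1.42 ± 0.14).

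**Figure D4:**
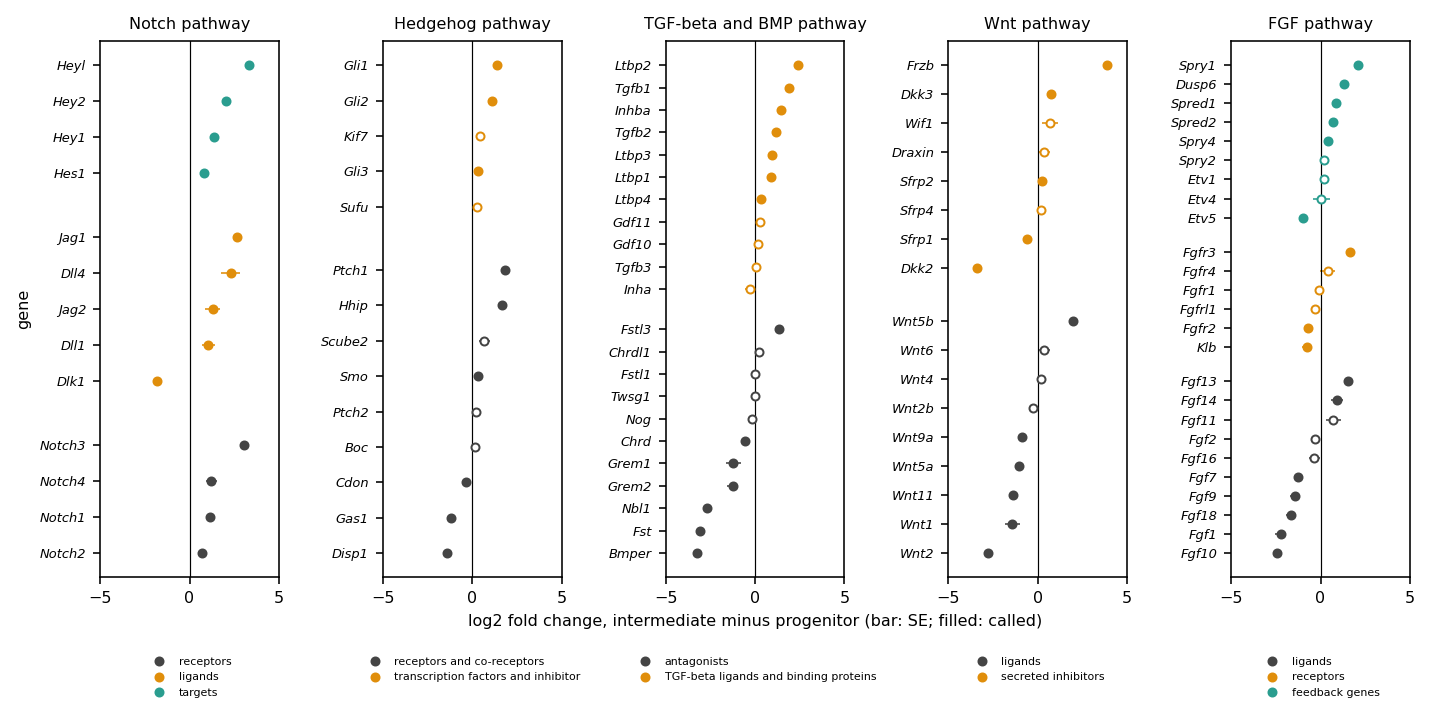
Log2 fold change (horizontal axis; intermediate minus progenitor, with SE) of members of 5 pathways (vertical axis: genes by role, named under each panel; filled points are called), leaving out members with a mean under 0.243 CPM in either group. Notch receptors, Notch targets and most TGF-beta ligands lie to the right, while most BMP antagonists, Wnt ligands and FGF ligands lie to the left.

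Ligands and feedback genes of the FGF pathway also parted. Of 10 ligands, 5 were called lower and 2 higher, and of 9 feedback genes 5 were higher and 1 lower. Fgf10, a ligand made by mesenchyme and a factor in fat development, was at 29.5, 27.1 and 40.5 CPM in progenitor and 6.88, 5.56 and 5.59 CPM in intermediate libraries (-2.43 ± 0.17), and Fgf7, of the same subfamily, at 94.7, 90.6 and 106 CPM in progenitor and 39.96, 39.4 and 40.05 CPM in intermediate libraries (-1.29 ± 0.09). Spry1, a feedback inhibitor induced by receptor tyrosine kinases, was at 31.5, 35.7 and 28.6 CPM in progenitor and 162, 165 and 85.8 CPM in intermediate libraries (2.11 ± 0.21), and Dusp6, a phosphatase of ERK, at 34.8, 33.6 and 31.7 CPM in progenitor and 88.5, 86.9 and 73.8 CPM in intermediate libraries (1.32 ± 0.10). Etv5, a transcription factor induced by FGF, was at 17.3, 16.6 and 17.8 CPM in progenitor and 8.56, 8.74 and 8.67 CPM in intermediate libraries (-0.99 ± 0.12) and so did not move with Spry1 and Dusp6. In the fit of all 12 libraries 4 FGF genes were called higher in place of 8.

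The PDGF receptors moved apart. Pdgfrb, the receptor that mural cells need, was at 141, 120.4 and 123 CPM in progenitor and 460.3, 506 and 415 CPM in intermediate libraries (1.85 ± 0.09), while Pdgfra was lower as given above. Per kilobase of exon, Pdgfrb was at 23.3 CPM in progenitor and 84 CPM in intermediate libraries and Pdgfra at 43.8 CPM in progenitor and 26.8 CPM in intermediate libraries, so the order of the pair turned between the groups. In the list of PDGF, VEGF and angiopoietin genes, 18 of 38 were called higher and 12 lower. Tek, the angiopoietin receptor, was at 109, 93.5 and 90.5 CPM in progenitor and 13.8, 12.8 and 10.1 CPM in intermediate libraries (-2.99 ± 0.13), and Angpt2, one of its ligands, at 27.3, 25 and 25.4 CPM in progenitor and 113, 103 and 107 CPM in intermediate libraries (2.06 ± 0.09). Receptor and ligand went in opposite directions with no overlap in either. Vegfa fell from 178 to 113 CPM and Vegfd rose from 13 to 49.2 CPM, both angiogenic ligands. Among genes of neurotrophic signals, Ntrk3, the receptor of neurotrophin 3, rose from 71.1 to 180.1 CPM, its ligand Ntf3 from 0.767 to 7.21 CPM, and Gfra2, a receptor of neurturin, from 8.90 to 53.5 CPM. Kitl (stem cell factor) and Csf1 (the macrophage growth factor) fell from 38.9 to 11.1 CPM and from 158 to 69.5 CPM.

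Growth genes under genomic imprinting, of which the cell uses the copy of 1 parent, were more often lower in the intermediate cells. Of 31 tested, 18 were called lower and 5 higher, at a median log2 fold change of -0.43. H19, a long noncoding RNA that is abundant before birth and wanes after it, was at 649, 842 and 612 CPM in progenitor and 78, 65.6 and 101 CPM in intermediate libraries (-3.11 ± 0.16), and lies on chromosome 7 from 142575529 to 142578143. Cdkn1c, an inhibitor of cell division, was at 255, 268 and 286 CPM in progenitor and 70.7, 73.9 and 93.6 CPM in intermediate libraries (-1.76 ± 0.11; 30.7% of its exon bases overlap another gene), and Mest at 1307, 1246 and 1232 CPM in progenitor and 775, 783 and 794 CPM in intermediate libraries (-0.69 ± 0.06). H19 varied the most among them within groups, and none of the 3 overlapped between groups. Igf2, the growth factor gene beside H19, was at 12 to 6.14 CPM, but 64.5% of its annotated exon bases overlap another gene and its counts are uncertain. Igf2r, the receptor that clears Igf2, was called higher, at 256, 213 and 245 CPM in progenitor and 355, 397 and 350.0 CPM in intermediate libraries (0.63 ± 0.09), and Nap1l5 rose from 6.35 to 17.2 CPM. In the IGF pathway, 5 of 16 were called higher and 6 lower. Igf1 fell and its receptor Igf1r rose, from 719 to 225 CPM and from 47.4 to 80.9 CPM, and among the binding proteins Igfbp6 fell from 148 to 16.8 CPM and Igfbp5 from 298 to 84.2 CPM, while Igfbp2 rose from 3.14 to 18.1 CPM and Igfbp7 from 759 to 1513 CPM.

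Guidance cues of axons and vessels were more often higher. Of 57 tested, 27 were called higher and 6 lower (10 lower under library size alone), and of 13 slits, netrins and their receptors 9 were higher and 0 lower. Slit2 and Slit3, ligands of Robo receptors, rose from 61.7 to 147 CPM and from 170.2 to 382 CPM, and Ntn1, netrin 1, from 83.9 to 216 CPM. Unc5b, a netrin receptor, was at 10.3, 9.36 and 9.10 CPM in progenitor and 72.5, 73 and 72.4 CPM in intermediate libraries (2.92 ± 0.10). Epha3, a receptor of ephrins, was at 196, 181 and 179 CPM in progenitor and 834, 889 and 772 CPM in intermediate libraries (2.17 ± 0.08), with the intermediate libraries above the progenitor libraries in both genes. Class 3 semaphorins did not share a direction, since Sema3a and Sema3d fell from 41.6 to 13.7 CPM and from 122 to 48.9 CPM, and Sema3f rose from 34.5 to 123 CPM.

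Most fibrillar collagens rose in intermediate cells, and basement membrane genes were more often higher than lower. Of 11 fibrillar chains tested, 9 were called higher and 1 lower. Col1a1, a chain of type I collagen, was at 19317, 18681 and 20766 CPM in progenitor and 56194, 63397 and 56680.1 CPM in intermediate libraries (1.58 ± 0.06), and Col1a2, the other chain, at 41009, 38849 and 41928 CPM in progenitor and 58336, 61992 and 59588 CPM in intermediate libraries (0.56 ± 0.05). The chains of type I collagen thus rose by unequal amounts. Col3a1, the chain of type III collagen, was at 83925, 75716 and 83039 CPM in progenitor and 91099.5, 95924 and 84788 CPM in intermediate libraries, a log2 fold change of 0.16 ± 0.06, and this call was lost without intermediate replicate 1 (0.13), intermediate replicate 2 (0.12), progenitor replicate 2 (0.10) or progenitor replicate 3 (0.16). Col11a1 and Col24a1, minor fibrillar chains, were at 30.05, 25.8 and 32.6 CPM in progenitor and 278, 304 and 289 CPM in intermediate libraries and 4.54, 3.27 and 2.36 CPM in progenitor and 70.8, 64.2 and 64 CPM in intermediate libraries, changes of 3.30 ± 0.10 and 4.30 ± 0.17. Col5a3, a chain of type V collagen, was the fibrillar member called lower, at 323, 295 and 319.5 CPM in progenitor and 84.9, 101 and 84.4 CPM in intermediate libraries (-1.80 ± 0.09). The remaining collagens of this list, such as Col12a1 (226 to 586 CPM) and Col6a3 (605 to 1883 CPM), included 9 called higher and 4 lower of 21 tested.

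Among 29 basement membrane genes, 15 were called higher and 4 lower. Col4a1 and Col4a2, the main chains of type IV collagen, were at 628, 571 and 599 CPM in progenitor and 3044, 3295 and 2845 CPM in intermediate libraries and at 441, 391 and 461 CPM in progenitor and 2089, 2140.1 and 1982 CPM in intermediate libraries, changes of 2.35 ± 0.07 and 2.26 ± 0.08. Col4a5 and Col4a6, which form another type IV network known from smooth muscle, were at 19.3, 18.7 and 22.3 CPM in progenitor and 193, 215 and 155 CPM in intermediate libraries and at 2.53, 1.44 and 2.42 CPM in progenitor and 55.9, 64.4 and 49.6 CPM in intermediate libraries, with larger changes of 3.22 ± 0.13 and 4.74 ± 0.18. In all 4 chains the groups were far apart. Laminin chains differed in direction, with Lama5 up from 1.88 to 19.1 CPM and Lama2 from 137 to 332 CPM, and Lama4 down from 317 to 212 CPM and Lamb1 from 436 to 296 CPM. Integrins, the receptors for these proteins, were called higher in 13 of 21 and lower in 4. Itga1, a receptor subunit for collagen IV, rose from 25.5 to 89 CPM, Itga7, for laminin, from 11.8 to 38.8 CPM, and Itga4, for fibronectin and Vcam1, from 0.678 to 11 CPM, while Itga5 and Itgb3 fell from 169 to 117 CPM and from 70.5 to 38 CPM.

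Elastin rose while several proteins of the elastic fibre fell. Eln, which encodes the elastin core, was at 3688, 3644 and 4171 CPM in progenitor and 17249.9, 16432 and 14685 CPM in intermediate libraries (2.07 ± 0.08), and Mfap4, a microfibril protein, at 3845, 3921 and 3345 CPM in progenitor and 5315, 5203 and 5668 CPM in intermediate libraries (0.54 ± 0.07). Fbln2 and Fbln1, fibulins, were at 1962, 2042 and 1931 CPM in progenitor and 519, 516 and 429 CPM in intermediate libraries and 913, 1129 and 965 CPM in progenitor and 513, 554 and 515 CPM in intermediate libraries, changes of -2.02 ± 0.08 and -0.93 ± 0.08. Both were lower in every intermediate library. Fbln5, another fibulin, went the other way and was called higher. Among 12 fibulins and binding proteins tested, 6 were called higher and 4 lower, and Fbln5 had the highest level per kilobase of exon. Mfap5 and Emilin2 fell, from 2710.1 to 1301 CPM and from 319 to 123 CPM. In the whole list 11 of 22 were called higher and 7 lower. Loxl1 and Loxl2, enzymes that crosslink elastin and collagen, rose from 268 to 612 CPM and from 31 to 69.6 CPM, and Serpinh1, the collagen chaperone Hsp47, from 1002 to 2013 CPM. Of 24 collagen modifying enzymes 10 were called higher and 2 lower, or 1 lower in the fit of all 12 libraries and without intermediate replicate 2, progenitor replicate 1 or progenitor replicate 3, 4 with no low-count filter and 6 with scaling by library size alone.

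Small proteoglycans that coat collagen fibrils were more often lower than higher, 7 of 15, with 3 higher. Dcn, decorin, was at 11177, 11909 and 10121 CPM in progenitor and 4601, 4319.9 and 4789 CPM in intermediate libraries (-1.28 ± 0.07), and Bgn, biglycan, its closest relative in the list, at 1574, 1597 and 1583 CPM in progenitor and 3004, 2901 and 3231 CPM in intermediate libraries (0.94 ± 0.06). Decorin fell and biglycan rose with no overlap in either. Per kilobase of exon, Dcn was at 1896 CPM in progenitor and 783 CPM in intermediate libraries and Bgn at 259.8 CPM in progenitor and 499 CPM in intermediate libraries. Fmod, fibromodulin, rose from 60.4 to 246 CPM, and Lum, lumican, fell from 2014 to 1119.5 CPM. Among matricellular proteins, which signal to cells from the matrix, 17 of 36 were called higher and 9 lower. Tnc, tenascin C, was at 50.6, 28.8 and 42.2 CPM in progenitor and 1051, 1153 and 1004 CPM in intermediate libraries (4.72 ± 0.17), and its relative Tnxb, tenascin X, at 471, 535 and 498 CPM in progenitor and 254, 269 and 299 CPM in intermediate libraries (-0.87 ± 0.08). Ccn4 and Ccn5, matrix proteins of the family to which Ccn2 belongs, rose from 71.9 to 406 CPM and from 2.89 to 30.1 CPM, and Mgp, an inhibitor of vessel calcification, from 174 to 565 CPM.

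Matrix proteases and their inhibitors were called higher in 15 and lower in 10 of 36. Mmp2, a gelatinase, was at 1495, 1513 and 1524 CPM in progenitor and 612, 638 and 628 CPM in intermediate libraries (-1.27 ± 0.06), and Mmp14, the membrane protease that activates the Mmp2 protein, at 784, 777 and 783 CPM in progenitor and 1569.8, 1489 and 1589.7 CPM in intermediate libraries (0.99 ± 0.06), so the enzyme and its activator moved apart. Adamts19 fell from 13.9 to 1.25 CPM, and Adamts17 rose from 4.96 to 25.1 CPM, both secreted proteases of 1 family. Timp3, an inhibitor bound to matrix, rose from 96.9 to 180.1 CPM, while Timp1 fell from 67.8 to 41.8 CPM.

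Drivers of adipocyte formation were more often lower than higher. Of 19 drivers of adipogenesis 9 were called lower and 3 higher. Pparg, the master regulator of fat cell formation, stood at 48.7, 46.1 and 43.3 CPM in progenitor and 7.41, 8.06 and 6.32 CPM in intermediate libraries (-2.66 ± 0.12), and Nr1h3, a sterol receptor, at 8.63, 11.2 and 8.03 CPM in progenitor and 2.37, 1.22 and 1.22 CPM in intermediate libraries (-2.54 ± 0.26). Both were low in every intermediate library. Rxra, the partner of Pparg, rose from 19.6 to 53.3 CPM (1.44 ± 0.22). Of the inhibitors of adipogenesis, Nr2f2 rose from 25.8 to 64.7 CPM and Ccn5 as given above, while Dlk1 and Zfp521 fell. Without intermediate replicate 1, 4 adipogenic transcription factors were called higher in place of 7.

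Of 40 lipid genes of adipocytes, 18 were called lower and 6 higher. Lpl, lipoprotein lipase, was at 1291, 1219 and 1295 CPM in progenitor and 225, 201 and 204 CPM in intermediate libraries (-2.59 ± 0.07), Fabp4, a fatty acid carrier, at 171, 198 and 159 CPM in progenitor and 52.3, 56.7 and 47.6 CPM in intermediate libraries (-1.75 ± 0.10), and Adipoq, adiponectin, at 51.8, 62.9 and 35.2 CPM in progenitor and 12.5, 11.5 and 10.3 CPM in intermediate libraries (-2.13 ± 0.19). These 3 were lower in every intermediate library. Enzymes of fatty acid synthesis were among the higher members, with Fasn, fatty acid synthase, up from 129 to 223 CPM, and Acaca and Acacb, acetyl-CoA carboxylases, from 16.7 to 31 CPM and from 2.31 to 6.54 CPM. Markers of committed preadipocytes were called lower in 12 and higher in 7 of 19. Those lower included Lpl, Fabp4, Pparg, Dlk1 and Steap4, all given above. Those higher included Mgp, Pdgfrb, Aoc3 (36.8 to 84.6 CPM), an amine oxidase also made by smooth muscle, and Fmo2 (199 to 498 CPM). Thermogenic genes were called higher in 5 and lower in 7 of 20, or in 3 and 4 with at least 5 CPM in 3 libraries. The 7 called lower were Ebf2, given above, Gatm, Ckb, Cox4i1, Lhx8, Ppargc1b and Adrb3. Among the 5 called higher, Dio2, the deiodinase that activates thyroid hormone, was at 3.18, 4.65 and 2.92 CPM in progenitor and 31.3, 31.3 and 31.9 CPM in intermediate libraries (3.13 ± 0.16).

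Enzymes of mitochondrial fuel use were lower. Of 37 genes of fatty acid oxidation and the TCA cycle, 26 were called lower and 0 higher, at a median log2 fold change of -0.42. Acaa2, a thiolase of fatty acid oxidation, was at 171, 187 and 138 CPM in progenitor and 80.3, 77.2 and 87.3 CPM in intermediate libraries (-1.02 ± 0.11), and Pdk4, a kinase that turns cells from glucose to fat use, at 20.6, 16 and 19.1 CPM in progenitor and 5.96, 8.27 and 7.05 CPM in intermediate libraries (-1.38 ± 0.15). Of 41 nuclear genes of oxidative phosphorylation 36 were called lower, at a median of -0.46, but 16 with the length trend removed. Ndufa4, a subunit of the respiratory chain, was at 159.8, 176 and 159.8 CPM in progenitor and 90.00, 80.8 and 88.5 CPM in intermediate libraries (-0.93 ± 0.08). Cytosolic ribosomal proteins, whose transcripts are short, were called lower in 48 of 50, at a median of -0.55, in 32 with the length trend removed. Rps18 was at 164, 179 and 163 CPM in progenitor and 101, 82.5 and 107 CPM in intermediate libraries (-0.80 ± 0.10). Of 12 mitochondrially encoded genes 4 were called lower, and 0 with the length trend removed, 2 without intermediate replicate 2 or progenitor replicate 3, and 7 without progenitor replicate 1.

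Glycolysis genes were called lower in 10 and higher in 2 of 21, or higher in 1 without intermediate replicate 1 or 2. Hk2, a hexokinase, was at 61.8, 71.5 and 75.6 CPM in progenitor and 24.1, 26.8 and 35.2 CPM in intermediate libraries (-1.28 ± 0.14). Cholesterol genes moved the other way, 15 of 29 called higher and 2 lower. Srebf2, the regulator of the pathway, rose from 119 to 169 CPM (0.50 ± 0.08). DESeq2 and the fit with no low-count filter each called 9 cholesterol genes higher, and the fit of all 12 libraries 7.

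Immune genes of stromal cells were lower across 3 lists. Of 36 chemokines, interleukins and their receptors, 26 were called lower and 0 higher. Cxcl13, a chemokine for B cells, was at 46.3, 67.9 and 78.3 CPM in progenitor and 3.44, 2.37 and 1.70 CPM in intermediate libraries (-4.67 ± 0.24), and Ccl2, a chemokine for monocytes, at 557, 602 and 714 CPM in progenitor and 117, 94.3 and 117 CPM in intermediate libraries (-2.51 ± 0.11). Il33, an alarm cytokine of stromal cells, was at 397, 369 and 462 CPM in progenitor and 149.9, 150.3 and 137 CPM in intermediate libraries (-1.49 ± 0.09). In all 3 the progenitor libraries were the higher ones. Complement genes were called lower in 12 and higher in 1 of 20, as in C4b, a core component, from 173 to 17.8 CPM, and C1s1, a protease of the first complex, from 294 to 91.7 CPM. Interferon response genes were called lower in 30 and higher in 1 of 35, at a median of -1.01. Iigp1, a GTPase induced by interferon, was at 103, 76.5 and 113 CPM in progenitor and 28.2, 29 and 22.1 CPM in intermediate libraries (-1.88 ± 0.15), and Ifitm3, a membrane protein that blocks virus entry, at 361, 385 and 395 CPM in progenitor and 180.3, 158 and 181 CPM in intermediate libraries (-1.14 ± 0.08).

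Retinoid genes were called lower in 9 and higher in 3 of 22. Aldh1a3 is given above. Among genes with at least 5 CPM in 3 libraries 5 retinoid genes were called lower.

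Immediate early and stress genes, which can also respond to tissue digestion, did not share a direction, with 17 of 36 called lower and 10 higher. Myc, a growth regulator, was at 253, 271 and 277 CPM in progenitor and 88.9, 93.3 and 93 CPM in intermediate libraries (-1.54 ± 0.07), and Atf3, a stress factor, at 936, 947 and 939 CPM in progenitor and 439, 389 and 425 CPM in intermediate libraries (-1.17 ± 0.07). Nr4a2 and Nr4a3, nuclear receptors induced by many signals, were at 156, 165 and 195 CPM in progenitor and 407, 468 and 563 CPM in intermediate libraries and at 38.2, 43.4 and 54.5 CPM in progenitor and 117, 125 and 173 CPM in intermediate libraries, changes of 1.48 ± 0.12 and 1.60 ± 0.16. Myc and Atf3 were thus low, and both Nr4a genes high, in every intermediate library. The heat shock genes Hspa1a and Hspa1b, near-identical copies, rose from 37.7 to 75.9 CPM and from 113 to 215 CPM, and reads between them could have been split in counting. In the fit of all 12 libraries 5 of these genes were called higher.

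Most genes of mitosis rose, and genes of DNA synthesis were mostly not called. Of 23 genes of G2 and M phase tested, 15 were called higher and 0 lower, and of 20 genes of S phase 1 was called higher and 3 lower. Mki67, a marker of dividing cells, was at 42.5, 44.7 and 35.3 CPM in progenitor and 84.6, 82 and 73.9 CPM in intermediate libraries (0.97 ± 0.11), Top2a, a DNA topoisomerase, at 71.6, 74.1 and 62 CPM in progenitor and 124, 116 and 108 CPM in intermediate libraries (0.74 ± 0.09), and Pcna, the clamp of DNA synthesis, at 102, 104 and 94.8 CPM in progenitor and 107, 95.8 and 100.4 CPM in intermediate libraries (0.01 ± 0.08, not called). Pcna was called higher with the length trend removed (0.23), and its groups overlapped. Whether G2 and M genes differed from S phase genes was not tested. Ccnd2, a D cyclin, rose from 154 to 283 CPM and Ccnd3, another, fell from 275 to 165 CPM. Over the list of 52 tested genes, 20 were called higher, but 13 without intermediate replicate 1 and 12 in the fit of all 12 libraries.

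Markers of other cell types were measured in the same libraries. The 19 endothelial markers summed to 125 to 141 CPM in progenitor and 113 to 239 CPM in intermediate libraries. Of 16 tested, 15 were called higher and 1 lower, which was Tek, given above. Tek made up most of each progenitor sum and little of each intermediate sum, so the sums hide the rise of the other tested members. Vwf, the clotting protein von Willebrand factor, was at 0.584, 0.919 and 1.91 CPM in progenitor and 34.4, 81.8 and 14.7 CPM in intermediate libraries, and Pecam1, an adhesion protein of endothelium, at 8.37, 10.2 and 8.71 CPM in progenitor and 23.1, 20.1 and 14.2 CPM in intermediate libraries. The intermediate libraries were above the progenitor libraries in both, and Vwf varied widely among them. Mesothelial markers were called lower in 7 of 13 and summed to 107 to 233 and 33.1 to 100.1 CPM, in the same order of groups, with 11 called lower without progenitor replicate 2 or with no low-count filter and 4 without progenitor replicate 3, without intermediate replicate 2 or 3, with DESeq2, with an even background subtracted or with the length trend removed. The fit of all 12 libraries and the filter at 5 CPM each called 3 lower. Leukocyte markers summed to 44.6 to 53.1 and 75.6 to 90.6 CPM, Schwann cell markers to 57.7 to 72.7 and 62.3 to 72.4 CPM, sympathetic neuron markers to 21.4 to 25.2 and 31.6 to 47.1 CPM, and red blood cell markers to 82.9 to 252 and 5.49 to 11.8 CPM. Of these, 4 of 9 leukocyte, 5 of 9 Schwann and 6 of 12 neuron markers were called higher, and all 5 tested red blood cell markers lower. The Schwann count was 8 without progenitor replicate 2 or 3, and over all alternatives it ran from 1 to 9. The leukocyte count was 2 without intermediate replicate 2. Among genes with at least 5 CPM in 3 libraries, 7 endothelial and 0 neuron markers were called higher and 3 red blood cell markers lower. The part of these cell types in the other results was not tested. Cartilage and tendon markers were called higher in 6 of 10 (3 under that filter), and Tnmd, tenomodulin of tendon, was at 7.07, 7.23 and 5.22 CPM in progenitor and 40.6, 35.1 and 33.2 CPM in intermediate libraries (2.48 ± 0.14).

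**Figure D5:**
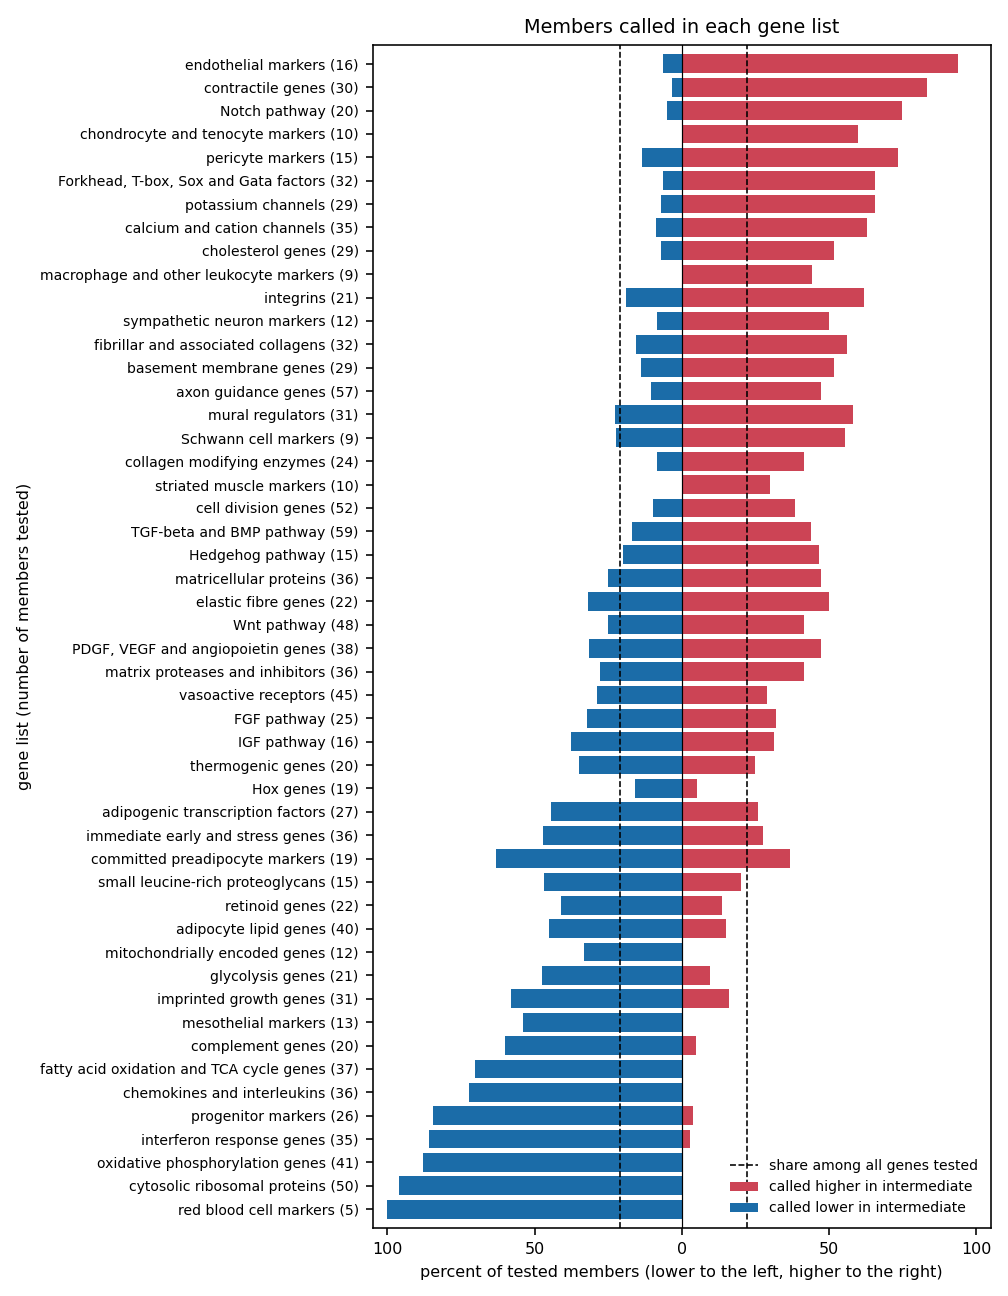
Percent of the tested members of each list called higher (right) and lower (left) in intermediate libraries (horizontal axis), with the number tested beside each list name (vertical axis) and the shares among all tested genes, 22.2% and 20.8%, as dashed lines. Endothelial, contractile and Notch genes reach farthest to the right, and red blood cell, ribosomal and oxidative phosphorylation genes farthest to the left.

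Outside the lists, the genes with the smallest p among those called higher and abundant included Actn1, the actin crosslinker alpha-actinin 1, at 7.20, 6.43 and 7.47 CPM in progenitor and 84.7, 78.7 and 69.6 CPM in intermediate libraries (3.46 ± 0.12). Cdh3, P-cadherin of cell contacts, was at 1.62, 1.61 and 2.30 CPM in progenitor and 36.2, 34 and 37.3 CPM in intermediate libraries (4.27 ± 0.15), and Art4, a surface protein of the ADP-ribosyltransferase family, at 1.82, 1.49 and 1.29 CPM in progenitor and 38, 34 and 35.3 CPM in intermediate libraries (4.54 ± 0.15). In all 3 the libraries within a group were close and the groups far apart. Prss35, a serine protease of matrix-rich tissue, rose from 182 to 639 CPM, and Megf6, a secreted protein with EGF repeats, from 40.8 to 169.7 CPM. Among those called lower, Tnfaip6, a hyaluronan-binding protein induced by inflammation, fell from 727 to 75.9 CPM, and Adh1, an alcohol dehydrogenase that also oxidises retinol, from 94.4 to 12.2 CPM. Lars2, the mitochondrial leucyl-tRNA synthetase, was at 1943, 3626 and 2086 CPM in progenitor and 12104, 10857 and 16492 CPM in intermediate libraries (2.37 ± 0.22). These levels are very high for an enzyme of this kind, and whether all reads counted for Lars2 came from its transcript was not tested.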

How the data were processed

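The authors deposited whole-number counts per gene, unscaled; STAR 2.5.2a, DESeq2 1.26.0 and mm10 are named in the submitters' processing notes, but the sources used here name neither the counting tool nor its strand setting. The deposited normalized and log-scaled tables were not used. Libraries were made with SMART-Seq v4, per the labels' protocols. Groups came from the sample titles, and gene names from GENCODE M21. Genes were filtered with filterByExpr, leaving 16552 with 99.48% to 99.78% of each library's counts, scaled with TMM and tested two-sided with edgeR 4.0.16 in R 4.3.3 (glmQLFit, glmQLFTest) over 6 libraries, with Benjamini-Hochberg adjustment over all tested genes and calls at 0.05. Standard errors follow from the F statistic. The common biological coefficient of variation was 0.116.

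Members and lists were chosen with earlier results of these data known. Of 1543 list entries 1530 were matched by symbol, and the others were not analysed here. Some list members are not reported here by name. Genes named are the 15 with the largest changes in each direction among called genes without overlap and at 4 or more in mean log2 CPM, up to 8 members of each list and direction by smallest p, members called against their list, the most abundant and the most significant of each role, 10 genes in no list per direction by smallest p, and fixed markers with Lars2. Exons of 162 of the 569 named genes overlap other annotated genes, 14 by at least 25% of their bases.

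No 2 replicates were 1 library (chi-square per degree of freedom 4.31 to 11.0). On simulated counts of these 6 libraries over 16552 genes, the test recovered 83 of 100 simulated 2-fold changes and 98 of 100 simulated 4-fold changes, and 14 of its 195 calls were false. In that simulation only 200 genes were changed and no length trend was put in, whereas 43.0% of genes were called in the data. Its rates may therefore differ from those of the real comparison. Alternatives were DESeq2-type size factors, library size alone, DESeq2 1.42.0, limma-voom 3.58.1, other low-count filters, all 12 libraries in 1 model, a replicate block, protein-coding genes alone, an even background subtracted, and each library left out. Removal of the exon-length trend was added after seeing the data.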

Additional observations from a re-analysis of the deposited data

How the results depend on the processing

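Over the alternatives the number of called genes ran from 5547 to 8855, against 7118. The number with at least a 2-fold change was 1222 among genes with at least 5 CPM in 3 libraries and 4145 with no low-count filter, against 2404, as fewer and more genes were tested. Leaving out each library gave 5547 to 7120 called genes, 2899 to 3665 higher, 2648 to 3455 lower and 2176 to 2777 at least 2-fold. Replicate numbers were not taken to pair the samples. Deviations of same-numbered libraries correlated at 0.0886, -0.0568 and 0.0488, none above 0.1, and not every library correlated best with its own number. The second principal component (8.04% of variance) did place same-numbered libraries side by side, at 24.1, -5.02 and -21.6 for progenitor and 21.1, -0.115 and -18.5 for intermediate replicates 1, 2 and 3. A fit with a replicate block called 6568 genes, 6463 of them also called without it, and with the exon-length trend removed too it called 13 oxidative phosphorylation genes and 31 cytosolic ribosomal protein genes lower. With the exon-length trend removed, 4 called genes and Rplp1, not called without it, turned direction: Col3a1 -0.0004404, mt-Co2 0.0526, mt-Co3 0.0535, mt-Nd1 0.0563 and Rplp1 0.235 (log2), and with the block as well Col3a1 -0.0007979, mt-Co2 0.0489, mt-Co3 0.0578 and mt-Nd1 0.0587. Depth limits genes near 3 counts, 0.169 to 0.243 CPM.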
